A study of Mus musculus with 18 samples.

Results

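The kidneys of defeated mice were compared with those of undefeated mice, gene by gene. The 12 mice were chosen by their labels, as every mouse of the Ctrl and PBS groups, out of 18 mice in the series. All were wild-type male C57BL/6 mice labelled as 6 weeks old, and 1 bulk RNA-seq library was made from the right kidney of each. The 6 PBS mice (StressPbs in the labels) went through chronic social defeat stress (CSDS), in which a mouse is attacked daily by an unfamiliar aggressive CD-1 mouse and then kept in sight and smell of it behind a divider, and were injected with phosphate-buffered saline. The 6 Ctrl mice met no aggressor but had like housing and daily handling, and behaviour tests such as the forced swim were part of the study. An injection of the Ctrl mice is not described in the sources used here, so defeat and daily injection cannot be told apart, and neither the time of day nor the interval between the last defeat and the taking of the kidney is given. The other 6 mice of the series were defeated and given fluoxetine (FLX, or StressFlx in the labels). They enter the filter on low counts, the scaling and the estimate of the spread between mice, but no contrast with them is given.

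The main result rests on PBS mice 1 to 5, since the study dropped a PBS mouse from its comparisons because of high inflammatory transcripts. It does not name that mouse, which was taken to be PBS mouse 6 from the columns its heat maps show. Leaving it out is therefore a choice made on measured expression, and it bears on every immune and injury count below. Calls and counts were also made with all 6 PBS mice. Total estimated counts ran from 73000203 to 78650116 in Ctrl mice and from 72149987 to 78711121 in PBS mice. In FLX mice they ran from 48928823 to 79061296. Of 32675 genes in the deposited table, 20251 passed the filter on low counts. Defining markers of the kidney were present in every library: Slc34a1, the sodium-phosphate carrier of the proximal tubule, stood at 678 to 912 FPKM in Ctrl, 704 to 879 FPKM in PBS mice 1 to 5 and 362 FPKM in PBS mouse 6. Umod, the uromodulin of the thick ascending limb, stood at 776 to 1037, 695 to 1259 and 955 FPKM in the same order. PBS mouse 6 stood apart from the other PBS mice in many genes, as given beside each result, and Ctrl mouse 3 weighed heavily on the number of calls: without it, 916 genes were higher and 746 lower in PBS, against 433 and 339 with it.

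A stressed mouse releases corticosterone from the adrenal cortex and adrenaline from the medulla. Corticosterone enters cells and binds the glucocorticoid receptor, which moves to the nucleus and switches on genes such as Fkbp5, Tsc22d3, Sgk1 and Per1. The same hormone passes timing signals to the clocks of peripheral tissues, and in the kidney it acts beside aldosterone on salt transport in the distal nephron. The proximal tubule of male mice also carries a programme of transcripts that depends on androgens. The groups of genes below follow these axes, and every fold change is the log2 difference between PBS and Ctrl from edgeR's quasi-likelihood test on counts, with adjusted p by Benjamini-Hochberg over all genes tested, whereas levels are in FPKM. For Ctrl, 3 levels are given, the lowest, the median and the highest of the 6 mice, and for PBS the 5 levels follow the order of mice 1 to 5.

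Promoter sequences are shown for 4 genes that were higher in PBS mice. They were chosen because letters bound by the glucocorticoid receptor or by the clock factors can be read in them. Each is the 250 bases before a RefSeq transcription start on GRCm38.p6, on the plus strand. Capitals mark the match to a glucocorticoid response element in Sgk1, Map3k6 and Mt1, and the match to an E-box, bound by the CLOCK and BMAL1 pair, in Per1. The Sgk1 window also holds an E-box, which is left unmarked.
Sgk1: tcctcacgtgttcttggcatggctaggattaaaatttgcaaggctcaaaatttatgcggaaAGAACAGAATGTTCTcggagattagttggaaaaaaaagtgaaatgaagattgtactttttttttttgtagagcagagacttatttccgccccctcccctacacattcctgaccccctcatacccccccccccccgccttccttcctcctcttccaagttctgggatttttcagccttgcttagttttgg
Map3k6: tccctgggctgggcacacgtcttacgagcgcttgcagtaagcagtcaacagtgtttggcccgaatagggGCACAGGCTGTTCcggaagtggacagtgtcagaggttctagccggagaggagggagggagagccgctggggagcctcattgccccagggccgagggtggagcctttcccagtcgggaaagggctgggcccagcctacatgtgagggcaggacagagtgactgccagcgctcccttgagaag
Mt1: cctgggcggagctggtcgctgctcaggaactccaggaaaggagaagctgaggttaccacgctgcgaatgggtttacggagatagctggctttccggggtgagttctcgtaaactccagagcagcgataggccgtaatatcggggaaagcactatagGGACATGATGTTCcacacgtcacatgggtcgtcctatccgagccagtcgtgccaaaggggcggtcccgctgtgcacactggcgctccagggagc
Per1: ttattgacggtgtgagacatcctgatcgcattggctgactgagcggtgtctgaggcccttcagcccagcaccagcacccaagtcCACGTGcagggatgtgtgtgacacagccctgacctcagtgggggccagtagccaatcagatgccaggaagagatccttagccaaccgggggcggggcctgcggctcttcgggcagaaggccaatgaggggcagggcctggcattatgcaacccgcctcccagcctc

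The window of Sgk1 lies at chr10:21993640-21993889 and belongs to 1 of 6 Sgk1 starts in the RefSeq table. Its match, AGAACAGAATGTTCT, begins 189 bases before the start and has the full palindrome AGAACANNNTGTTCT, which was found in 3 of 32851 windows (0.00913%). The windows of Map3k6 at chr4:133240568-133240817 and of Mt1 at chr8:94178839-94179088 hold GCACAGGCTGTTC and GGACATGATGTTC, 181 and 94 bases before the start. Both match the shorter pattern GNACANNNTGTNC, which also takes in the full palindrome and was found in 127 windows (0.387%). The Per1 window lies at chr11:69098699-69098948, is 1 of 2 starts of that gene, and holds CACGTG 166 bases before the start, a pattern found in 1978 windows (6.02%). Each pattern reads the same on both strands. Of 24 genes listed as induced by glucocorticoids, 21 had a window in the table. The shorter pattern was held by 3 of their 31 windows (Map3k6, Mt1 and Sgk1). In the clock list 6 of 22 windows held the E-box, among them windows of Bhlhe41, Ciart and Tef, which were not called. The E-box was also held by 6 of 31 windows of the immediate early list and 4 of 31 of the glucocorticoid list. A match is a description of these letters, and windows without one say nothing about elements farther away.

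In PBS mice 433 genes were higher and 339 lower than in Ctrl mice at an adjusted p under 0.05, which is 2.14% and 1.67% of the 20251 genes tested (3.81% together). Adding PBS mouse 6 gave 489 higher and 364 lower genes, or 2.45% and 1.82% of 19946 genes (4.28% together), and 628 genes were called in the same direction in both. These were 81.3% of the calls with 5 PBS mice and 73.6% of those with 6. Most changes were small: the median size was 0.63 for the higher and 0.70 for the lower genes, and 121 and 99 of them passed 2-fold. In 712 genes (3.52%) the FPKM levels of PBS mice 1 to 5 did not overlap with those of the Ctrl mice, 358 higher (1.77%) and 354 lower (1.75%). Each list count below at an adjusted p under 0.05, or of groups apart, is to be read beside the shares over all genes given here. Counts at an unadjusted p under 0.05 alone have no such share beside them and are not read as a change of a list. A list with 1 call is not read as a change of that list. At a change over 2-fold and an unadjusted p under 0.05, the threshold of the study, 351 genes were higher (1.73%) and 313 lower (1.55%). Each p-value sets the difference between PBS and Ctrl against the spread within groups, which was estimated from 17 mice, the FLX mice included. Under upper-quartile scaling, which moved the median of all genes from -0.008 to -0.055, the split changed to 314 higher and 449 lower.

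Genes induced by glucocorticoids formed the list with the most members called. Of 23 members tested, 17 were higher in PBS mice and none lower, beside 2.14% of all genes higher, and the median member differed by 1.17 against -0.008 over all genes. Of 23 members, 22 had a positive fold change, and 12 were in every PBS mouse above every Ctrl mouse, beside 1.77% of all genes. With all 6 PBS mice 18 were higher, with a median of 1.53, and leaving out any 1 mouse gave between 13 and 17 higher. This list was written with earlier results of these data known, so its count is not independent evidence of direction.

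Fkbp5 encodes the immunophilin that restrains the glucocorticoid receptor, and its levels were 3.75, 4.51 and 6.46 FPKM in Ctrl and 7.73, 12.4, 16.004, 10.5 and 8.14 FPKM in PBS mice 1 to 5. Every PBS mouse was above every Ctrl mouse, with PBS mouse 6 at 27.03 FPKM. The difference passed the test (log2 fold change 1.23 ± 0.21 (SE), adjusted p = 0.00237; with all 6 PBS mice 1.53, adjusted p = 0.00335). Tsc22d3, which encodes the anti-inflammatory leucine zipper protein GILZ, stood at 4.59, 6.42 and 8.61 FPKM in Ctrl and at 11.2, 14.3, 13.6, 9.24 and 19.2 FPKM in PBS, again without overlap (log2 fold change 1.09 ± 0.17 (SE), adjusted p = 0.00138). Zbtb16, a transcriptional repressor with one of the lowest basal levels on the list, went from 0.0858, 0.1202 and 0.238 FPKM in Ctrl to 0.512, 0.801, 2.84, 0.587 and 1.11 FPKM in PBS, and PBS mouse 3 was highest among the first 5 (log2 fold change 3.04 ± 0.39 (SE), adjusted p = 0.000332). PBS mouse 6 had 3.51 FPKM of Zbtb16 and raised its fold change to 3.44.

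Sgk1 encodes a kinase that keeps the epithelial sodium channel at the cell surface, and the gene carries the full palindrome shown above. Its levels were 9.17, 11.4 and 21.4 FPKM in Ctrl and 52.9, 22.9, 27.3, 40.97 and 54.8 FPKM in PBS (log2 fold change 1.61 ± 0.23 (SE), adjusted p = 0.000694). PBS mice 1 and 5 were about equal at the top, PBS mouse 6 was above both at 59.1 FPKM, and the highest Ctrl mouse lay just under the lowest PBS mouse. Map3k6, a stress kinase of the MAP kinase cascade, stood at 0.258, 0.451 and 0.562 FPKM in Ctrl and 1.12, 0.712, 1.95, 1.26 and 1.79 FPKM in PBS, with 6.24 FPKM in PBS mouse 6 (log2 fold change 1.62 ± 0.23 (SE), adjusted p = 0.000612). The metallothionein Mt1, which binds zinc and copper, had 45.4, 53.3 and 84.2 FPKM in Ctrl and 102, 73.96, 90.6, 121 and 163 FPKM in PBS (log2 fold change 0.94 ± 0.17 (SE), adjusted p = 0.00464). For Mt1 the groups overlapped by PBS mouse 2, and PBS mouse 6 had 386 FPKM.

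Ddit4, an inhibitor of the growth kinase mTORC1, was one of the largest rises at an ample level. It stood at 7.17, 9.66 and 15.1 FPKM in Ctrl and 44.7, 71.7, 25.8, 30.8 and 65.3 FPKM in PBS (log2 fold change 2.17 ± 0.32 (SE), adjusted p = 0.000821), with 47.3 FPKM in PBS mouse 6. Cdkn1a, which encodes the cell-cycle inhibitor p21 and also belongs to the injury genes below, went from 1.39, 1.995 and 3.36 to 10.8, 5.53, 13.6, 7.27 and 12.7 FPKM (log2 fold change 2.21 ± 0.25 (SE), adjusted p = 0.000128). The transcription factors Cebpb and Cebpd rose by 1.34 ± 0.16 and 1.57 ± 0.22 on the log2 scale (SE; adjusted p = 0.000143 and 0.000487). Nfkbia, the inhibitor that holds NF-kB in the cytoplasm, stood at 9.06, 10.9 and 14.1 FPKM in Ctrl and 19.9, 17.9, 18.1, 16.5 and 33.999 FPKM in PBS (log2 fold change 0.91 ± 0.17 (SE), adjusted p = 0.00514). Errfi1, which damps EGF receptor signalling, rose by 0.90 ± 0.19 (SE; adjusted p = 0.0105). The calls of 4 members lay near the threshold and were lost on leaving out any 1 of several mice. Klf9 was lost without Ctrl mouse 1, 2, 4 or 5 or PBS mouse 1 or 4 (adjusted p = 0.0512 to 0.0955). Mt2 was lost without Ctrl mouse 1, 2, 4 or 5 or PBS mouse 1, 4 or 5 (adjusted p = 0.0516 to 0.08803). Hif3a was lost without Ctrl mouse 1, 2 or 5 or PBS mouse 3 or 5 (adjusted p = 0.0532 to 0.0636), and Sult1a1 without Ctrl mouse 1, 4 or 5 or PBS mouse 1, 3 or 5 (adjusted p = 0.0515 to 0.07498).

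**Figure D1:**
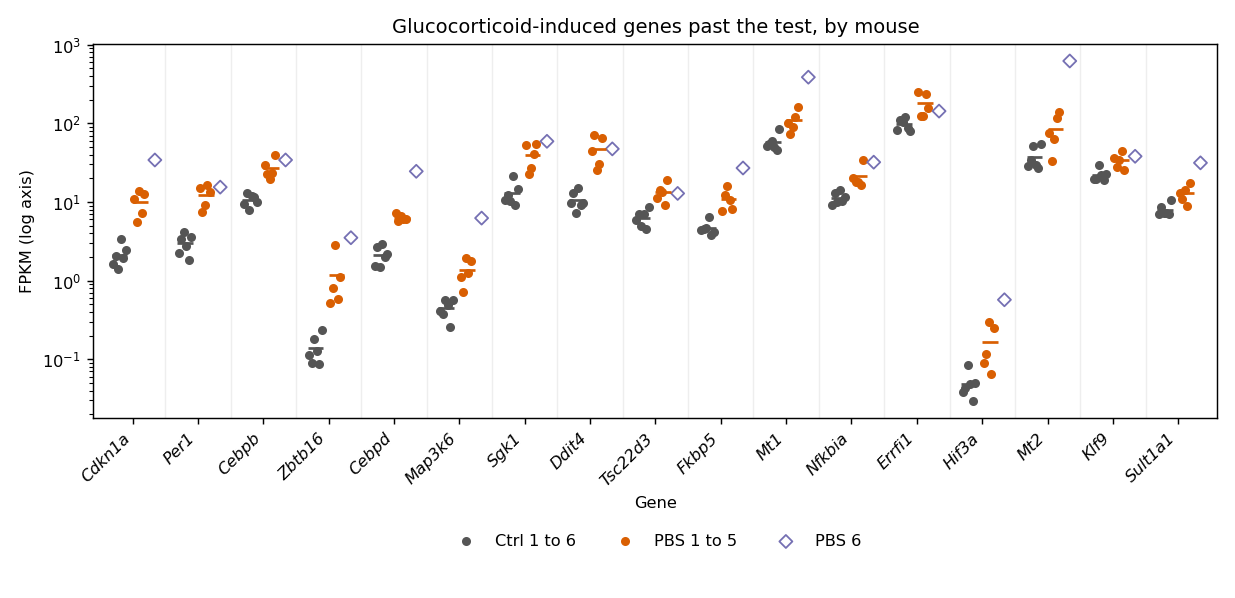
FPKM (log axis) of genes induced by glucocorticoids in each mouse, with Ctrl mice as grey dots, PBS mice 1 to 5 as orange dots, PBS mouse 6 as an open purple diamond and a line at the mean of Ctrl 1 to 6 and of PBS 1 to 5. PBS mice sit above Ctrl mice for Fkbp5 (7.73 to 16.004 against 3.75 to 6.46 FPKM) and Sgk1 (22.9 to 54.8 against 9.17 to 21.4 FPKM), and PBS mouse 6 is the highest mouse for Fkbp5.

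Not every member moved. The phosphatase Dusp1 had a fold change of -0.33 ± 0.26 (SE; adjusted p = 0.556), the lipase inhibitor Angptl4 0.01 ± 0.36 (0.992) and the RNA decay factor Zfp36 0.30 ± 0.32 (0.684). Pdk4, which blocks entry of pyruvate into mitochondria, stood at 11.2, 6.76, 19.8, 11.5 and 72.7 FPKM in PBS against 4.94 to 22.6 FPKM in Ctrl, high in PBS mouse 5 alone, and did not pass (adjusted p = 0.305). The 3 genes that follow stand outside the lists, bear on this hormone, and were chosen after their values were seen. Hsd11b1, which regenerates active corticosterone inside cells, was lower: 21.9, 26.4 and 28.4 FPKM in Ctrl and 14.7, 14.2, 17.9, 9.01 and 14.3 FPKM in PBS (log2 fold change -0.88 ± 0.14 (SE), adjusted p = 0.001299). Glul, glutamine synthetase, was higher, from 70.5, 80.3 and 92.1 to 174, 179, 136, 204 and 213 FPKM (log2 fold change 1.17 ± 0.14 (SE), adjusted p = 0.000134). The transcript of the glucocorticoid receptor itself, Nr3c1, had 7.24, 7.57 and 11.2 FPKM in Ctrl and 6.57, 6.92, 6.64, 7.69 and 7.78 FPKM in PBS, and its difference of -0.18 ± 0.10 (SE) did not pass (adjusted p = 0.349).

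Among clock genes and their outputs, 4 of 20 members were higher (Usp2, Per1, Nfil3 and Cry1), beside 2.14% of all genes. None was lower, and the median was 0.11. The same count was found with all 6 PBS mice. Leaving out single mice gave 3 to 7, 6 without Ctrl mouse 3 and 7 without PBS mouse 3, and without PBS mouse 4 there was 1 lower call. Usp2, a ubiquitin-specific protease whose transcript cycles through the day, had some of the tightest values in the data: 11.4, 12.04 and 13.7 FPKM in Ctrl and 25.2, 24.1, 26.2, 27.9 and 22.8 FPKM in PBS (log2 fold change 1.06 ± 0.09 (SE), adjusted p = 8.59e-06). PBS mouse 6, at 17.2 FPKM, lay between the groups. Per1, a repressor of the clock and also a direct target of the glucocorticoid receptor, stood at 1.82, 3.04 and 4.12 FPKM in Ctrl and 14.9, 7.56, 9.06, 16.4 and 13.2 FPKM in PBS, with 15.4 FPKM in PBS mouse 6 (log2 fold change 2.06 ± 0.24 (SE), adjusted p = 0.000134). Nfil3, a repressor in the output arm of the clock, rose by 1.74 ± 0.26 (SE; adjusted p = 0.000965). Cry1, another repressor of the clock, stood at 0.605, 0.778 and 1.26 FPKM in Ctrl and 1.74, 2.06, 1.198, 1.75 and 1.62 FPKM in PBS (log2 fold change 0.998 ± 0.23 (SE), adjusted p = 0.0202), and its call was lost without Ctrl mouse 2 or PBS mouse 1 or 4 (adjusted p = 0.0509 to 0.0522) and with limma at a pseudocount of 1.

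Other core members of the clock did not pass the test. Nr1d1 and Dbp, which peak together in the day, had fold changes of -0.61 ± 0.24 and -0.76 ± 0.40 (SE; adjusted p = 0.186 and 0.3402), and Dbp ranged from 3.23 to 22.97 FPKM within PBS mice 1 to 5. Arntl, which encodes BMAL1, differed by 0.59 ± 0.22 (SE; adjusted p = 0.159) and Clock by 0.15 ± 0.10 (0.442). Noct, a phosphatase of NADPH whose transcript is strongly rhythmic, was among the 10 largest rises that passed the naming rule given with the processing below. It lies at chr3:51224447-51251644 (GRCm38) and stood at 0.459, 0.668 and 0.983 FPKM in Ctrl and 3.17, 2.96, 4.52, 4.34 and 5.51 FPKM in PBS (log2 fold change 2.58 ± 0.20 (SE), adjusted p = 1.53e-06). PBS mouse 6 had 1.62 FPKM, above every Ctrl mouse and below every other PBS mouse. Because the hour at which each kidney was taken is not given, hour and group cannot be told apart for these genes.

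Immediate early genes, which are switched on within minutes of a stimulus, split the PBS mice. Of 27 tested members, 9 were higher, beside 2.14% of all genes. None was lower, the median was 0.84, and 8 were higher with all 6 PBS mice. The count fell to 4 without PBS mouse 1 (median 0.34) or PBS mouse 4, and to 5 without Ctrl mouse 1 or 5, and was 6 without Ctrl mouse 2 or 4. Without PBS mouse 3 there was 1 lower call. The count of higher members was 4 when Ctrl and PBS mice were fitted alone, and limma called 4 with a pseudocount of 0.1 and 3 with a pseudocount of 1, Klf6 and Maff not among them. Atf3, a stress-induced repressor, stood at 0.606, 0.905 and 1.13 FPKM in Ctrl and 11.9, 1.15, 1.08, 10.8 and 3.18 FPKM in PBS (log2 fold change 2.68 ± 0.53 (SE), adjusted p = 0.00797). PBS mice 1 and 4 were far above Ctrl, PBS mouse 5 was between, and PBS mice 2 and 3 were close to Ctrl. Klf6 was high in the same 2 mice, with 4.104, 4.77 and 5.75 FPKM in Ctrl and 18.98, 4.47, 6.78, 20.5 and 6.76 FPKM in PBS (log2 fold change 1.27 ± 0.31 (SE), adjusted p = 0.0259), and its call was lost without Ctrl mouse 1, 2, 4 or 5 or PBS mouse 1 or 4 (adjusted p = 0.0529 to 0.0996). Maff, a small bZIP factor, had 9.81, 1.17, 2.27, 11.7 and 2.68 FPKM in PBS against 0.5705 to 1.94 FPKM in Ctrl, and was lost without PBS mouse 1 or 4 (adjusted p = 0.0706 to 0.0758).

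Gadd45g, a growth arrest gene, was raised in more of the mice. It stood at 13.7, 20.6 and 26.8 FPKM in Ctrl and 128, 79.9, 30.4, 82.7 and 92.6 FPKM in PBS, with 39.4 FPKM in PBS mouse 6 (log2 fold change 2.04 ± 0.26 (SE), adjusted p = 0.000325). The orphan nuclear receptor Nr4a3 was near the floor in Ctrl (0.0352 to 0.138 FPKM) and ranged over 0.129 to 3.82 FPKM in PBS (log2 fold change 4.66 ± 0.77 (SE), adjusted p = 0.00204). The kinase Plk3 went from 2.36, 4.53 and 13.5 to 55.3, 15.1, 20.04, 61.1 and 18.5 FPKM (log2 fold change 2.36 ± 0.48 (SE), adjusted p = 0.0103), while PBS mouse 6, at 5.14 FPKM, was inside the Ctrl range. Fos and Egr1, the textbook members, did not pass the test (-0.85 ± 0.50 and 0.96 ± 0.57 (SE), adjusted p = 0.407 and 0.403).

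Heat shock and endoplasmic reticulum stress genes had 6 of 23 members higher, beside 2.14% of all genes. None was lower (median 0.41), and 6 were also higher with all 6 PBS mice. Herpud1, part of the machinery that removes misfolded proteins from the endoplasmic reticulum, was the most even of them: 73.8, 77.6 and 81.3 FPKM in Ctrl and 117, 131, 147, 140.2 and 119.9 FPKM in PBS (log2 fold change 0.76 ± 0.10 (SE), adjusted p = 0.000432). The chaperones Hspa1a and Dnajb1 were uneven. Hspa1a stood at 1.84, 2.66 and 5.62 FPKM in Ctrl and 24.9, 6.08, 3.2996, 16.03 and 13.3 FPKM in PBS (log2 fold change 2.13 ± 0.41 (SE), adjusted p = 0.00706), with PBS mouse 3 inside the Ctrl range. Dnajb1 stood at 5.54, 6.59 and 7.27 FPKM in Ctrl and 36.7, 11.9, 8.66, 25.2 and 11.1 FPKM in PBS (log2 fold change 1.54 ± 0.30 (SE), adjusted p = 0.00773), with PBS mice 1 and 4 on top. Hsph1 was called with 5 PBS mice (adjusted p = 0.0102) and not with 6 (adjusted p = 0.0906). The call of Dnajb9, another of the 6, was lost without Ctrl mouse 4, 5 or 6 or PBS mouse 1, 4 or 5 (adjusted p = 0.0655 to 0.137). PBS mice 1 and 4 had the highest levels of Atf3, Klf6, Maff, Hspa1a and Dnajb1, whereas Herpud1 was highest in PBS mouse 3, and what set these mice apart was not tested.

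**Figure D2:**
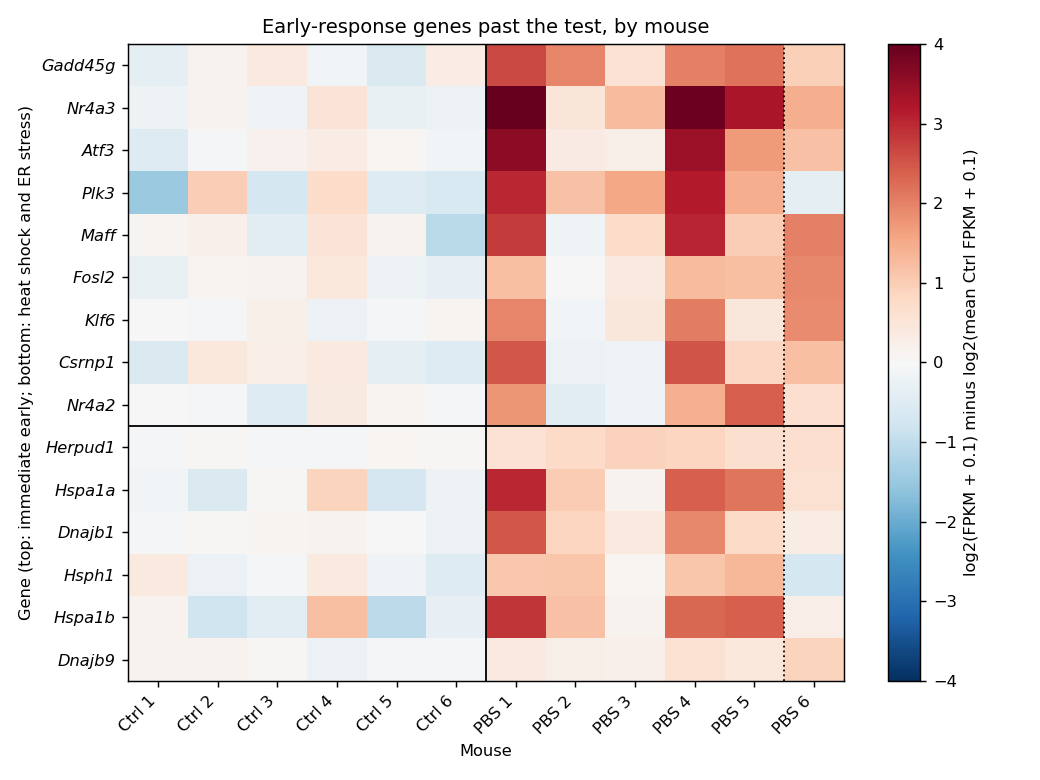
Heat map of 9 immediate early genes and 6 heat shock or endoplasmic reticulum genes (rows) in 12 mice (columns), coloured by log2(FPKM + 0.1) minus the log2 of the Ctrl mean plus 0.1. Columns of PBS mice 1 and 4 are the most intense for Atf3, Klf6 and Maff, PBS mice 2 and 3 are near the Ctrl colour for these, and Herpud1 is raised in every PBS mouse.

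The male-biased transcripts that passed the test were lower in PBS mice, and the female-biased ones that passed were higher. Of 13 male-biased members, 5 were lower (1.67% of all genes were lower) and none higher, with a median of -0.53. In 6 members every PBS mouse was below every Ctrl mouse, beside 1.75% of all genes. The 5 were also lower with all 6 PBS mice (median -0.64), and leaving out single mice gave 4 to 6. Of 6 female-biased members, 3 were higher, beside 2.14% of all genes, and none lower (median 1.26). The same 3 were higher with all 6 PBS mice. Without Ctrl mouse 3 or PBS mouse 2 there was also 1 lower call. Leaving out Ctrl mouse 2, 4 or 5 or PBS mouse 1, 4 or 5 left 2 higher. In whole tissue, fewer cells of a type and less RNA per cell cannot be told apart, here and for every list below.

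Kap, the kidney androgen-regulated protein, is among the most abundant transcripts of the male mouse kidney. It stood at 25573, 32558 and 37061 FPKM in Ctrl and 20125, 21183, 19837, 17873 and 17970 FPKM in PBS, without overlap (log2 fold change -0.73 ± 0.13 (SE), adjusted p = 0.00476). PBS mouse 6 had 4720 FPKM, and with it the fold change was -0.92 (adjusted p = 0.0445). On the FPKM scale limma gave the same sign with adjusted p = 0.224 (pseudocount 0.1) and 0.119 (pseudocount 1). Cyp4b1, an androgen-dependent monooxygenase, went from 649, 1089 and 1253 to 372, 495, 365, 348 and 455 FPKM, and PBS mouse 6 was alike at 346 FPKM (log2 fold change -1.35 ± 0.18 (SE), adjusted p = 0.000433). Slco1a1, an organic anion transporter of the brush border, stood at 10.9, 33.4 and 50.8 FPKM in Ctrl and 6.35, 5.98, 2.82, 4.27 and 3.58 FPKM in PBS (log2 fold change -2.74 ± 0.37 (SE), adjusted p = 0.000464). Cyp4a12a, which makes the vasoconstrictor 20-HETE from arachidonic acid, stood at 9.72, 11.9 and 35.2 FPKM in Ctrl and 2.77, 3.26, 2.797, 6.14 and 2.44 FPKM in PBS (log2 fold change -2.18 ± 0.36 (SE), adjusted p = 0.00189). Gusb, the lysosomal beta-glucuronidase, had a small difference (log2 fold change -0.31 ± 0.07 (SE), adjusted p = 0.0244) that was lost without Ctrl mouse 4 or 5 or PBS mouse 1 or 4 (adjusted p = 0.0545 to 0.0846).

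On the female-biased side, Slc7a12, of a family of amino acid transporters, was 1.46, 1.77 and 2.81 FPKM in Ctrl and 20.3, 23.6, 28.7, 25.4 and 12.2 FPKM in PBS (log2 fold change 3.49 ± 0.27 (SE), adjusted p = 1.53e-06). PBS mouse 6 went the other way for Slc7a12, at 0.708 FPKM, below every Ctrl mouse. Gm6300, which lies near Slc7a12 on chromosome 3 and is described below, fell in PBS mice. Whether reads were shared between the 2 genes was not tested. Prlr, the prolactin receptor, stood at 0.984, 1.43 and 2.68 FPKM in Ctrl and 4.08, 3.96, 5.06, 5.69 and 4.32 FPKM in PBS (log2 fold change 1.59 ± 0.26 (SE), adjusted p = 0.00198). Cyp4a14, a fatty acid omega-hydroxylase, ranged over 17.98 to 101 FPKM in Ctrl and 95.97 to 193 FPKM in PBS with 1357 FPKM in PBS mouse 6, and its call was lost without Ctrl mouse 2, 4 or 5 or PBS mouse 1, 4 or 5 (adjusted p = 0.0627 to 0.0874). Slc22a7, an organic anion transporter also listed as female-biased, pointed the other way, with a median of 105 FPKM in Ctrl and 22.6, 78.02, 63.8, 36.03 and 42.3 FPKM in PBS (log2 fold change -1.12 ± 0.33 (SE), adjusted p = 0.0691).

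**Figure D3:**
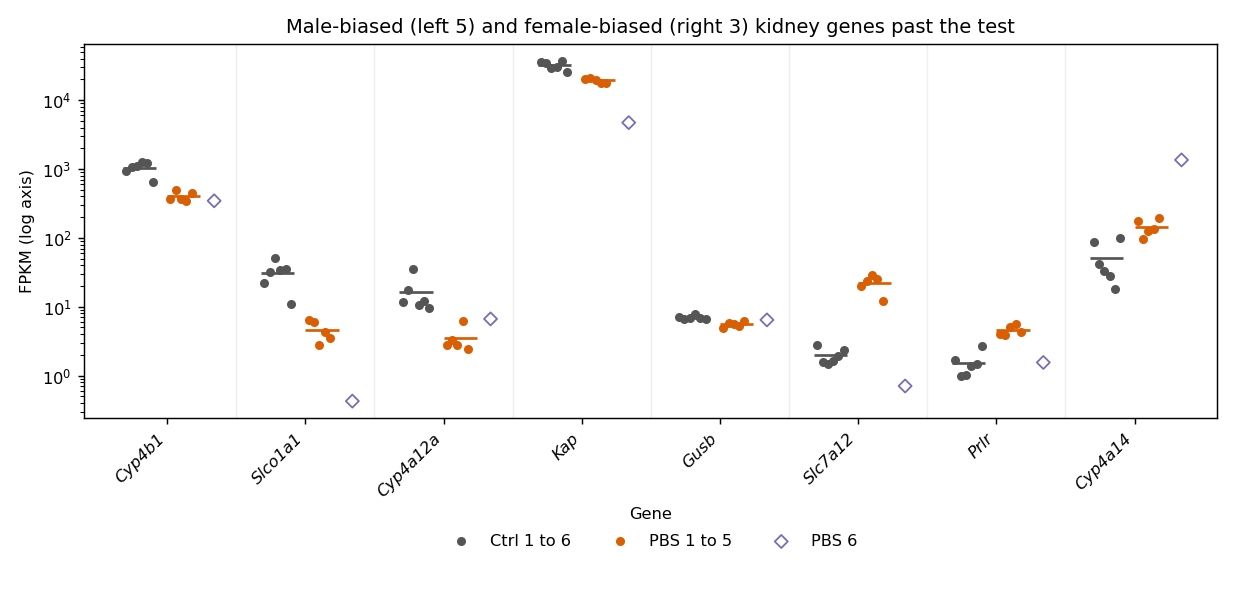
FPKM (log axis) of 5 male-biased and 3 female-biased kidney genes in each mouse; grey dots are Ctrl mice, orange dots PBS mice 1 to 5, the purple diamond PBS mouse 6, and lines the means of Ctrl 1 to 6 and PBS 1 to 5. Cyp4b1 and Slco1a1 sit lower in all PBS mice, Slc7a12 sits higher in PBS mice 1 to 5 (12.2 to 28.7 against 1.46 to 2.81 FPKM), and PBS mouse 6 lies below Ctrl for Slc7a12 and far above both groups for Cyp4a14.

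Few general markers of the proximal tubule passed the test. Of 20 early-segment markers, 1 was higher (Gatm, which makes the precursor of creatine) with a median of 0.11, and none was called with all 6 PBS mice. Gatm stood at 123, 142 and 179 FPKM in Ctrl and 259, 200.5, 286, 247 and 191 FPKM in PBS (log2 fold change 0.73 ± 0.16 (SE), adjusted p = 0.0148), but at 76.3 FPKM in PBS mouse 6, which ended the call (adjusted p = 0.198). Slc34a1, Lrp2 and Slc5a2, which define these segments, had fold changes of -0.02 ± 0.10, 0.09 ± 0.12 and 0.26 ± 0.14 (SE), none past the test. Of 16 late-segment markers, 1 was higher (Slc5a1) and 1 lower (Kap), with a median of -0.10. The summed FPKM of the late list was 26898 to 38558 in Ctrl, 18978 to 22570 in PBS mice 1 to 5 and 5155 in PBS mouse 6, most of it from Kap. Slc5a1, the sodium-glucose carrier SGLT1, had 16.6, 17.2, 16.4, 17.2 and 13.3 FPKM in PBS against 11.5 to 13.8 FPKM in Ctrl, and its call (log2 fold change 0.35 ± 0.09 (SE), adjusted p = 0.0329) was lost without Ctrl mouse 1, 2, 4 or 6 or PBS mouse 1, 2 or 4 (adjusted p = 0.0519 to 0.0989). Without Ctrl mouse 3 or PBS mouse 2 there were 2 lower calls in this list.

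In the distal convoluted and connecting tubule the called members were calcium and magnesium genes, but most of the list leaned the same way. At an unadjusted p under 0.05, 10 members were higher and none lower, with no share of all genes at that threshold to set beside them. Of 18 markers of these segments, 4 were higher, beside 2.14% of all genes, and none lower. The median was 0.32, and 16 had a positive fold change. With all 6 PBS mice 3 were higher, and leaving out single mice gave 3 to 10, the 10 without Ctrl mouse 3. Calb1, calbindin, ferries calcium through the cell and stood at 53.7, 64.3 and 76.999 FPKM in Ctrl and 160.2, 127, 134, 118 and 77.8 FPKM in PBS (log2 fold change 0.95 ± 0.17 (SE), adjusted p = 0.00354). The lowest PBS value, in mouse 5, was still above the highest Ctrl value. Trpv5, the apical calcium channel of the same cells, stood at 2.82, 3.19 and 4.03 FPKM in Ctrl and 6.09, 5.03, 5.02, 5.72 and 4.96 FPKM in PBS, with 8.15 FPKM in PBS mouse 6 (log2 fold change 0.72 ± 0.13 (SE), adjusted p = 0.00447). Trpm6, the apical magnesium channel, stood at 1.12, 1.36 and 1.997 FPKM in Ctrl and 2.81, 2.35, 2.31, 2.54 and 1.77 FPKM in PBS (log2 fold change 0.77 ± 0.14 (SE), adjusted p = 0.00551). Cnnm2, on the basolateral side of magnesium transport, was called with 5 PBS mice (adjusted p = 0.0426) and not with 6 (adjusted p = 0.0877), and was lost without Ctrl mouse 1, 2, 4 or 6 or PBS mouse 1, 2 or 4 (adjusted p = 0.0516 to 0.138).

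The segment's salt carrier did not pass the test. Slc12a3, the thiazide-sensitive sodium chloride cotransporter, stood at 50.3, 53.7 and 85.5 FPKM in Ctrl and 88.4, 53.99, 58.5, 74.8 and 66.1 FPKM in PBS (log2 fold change 0.23 ± 0.14 (SE), adjusted p = 0.426). Slc8a1, the exchanger that takes calcium out to the blood, had 7.63, 7.15, 6.72, 8.18 and 3.599 FPKM in PBS and 2.36 to 5.65 FPKM in Ctrl, above the Ctrl range in 4 of 5 PBS mice, and was not called (0.71 ± 0.21 (SE), adjusted p = 0.0711). Wnk1, the kinase upstream of Slc12a3, differed by 0.40 ± 0.13 (SE; adjusted p = 0.114).

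In principal cells of the collecting duct 3 of 17 markers were higher (Ptges, Scnn1g and Tfcp2l1), beside 2.14% of all genes. None was lower (median 0.35), and 5 were higher with all 6 PBS mice. The count was 1 without Ctrl mouse 1, 2 or 5 or PBS mouse 1 or 4, and 5 without Ctrl mouse 3 or PBS mouse 5. Ptges, the prostaglandin E synthase, was the steady member: 4.64, 5.76 and 7.68 FPKM in Ctrl and 13.2, 9.65, 9.02, 9.27 and 13.4 FPKM in PBS (log2 fold change 0.85 ± 0.18 (SE), adjusted p = 0.0142). The 3 subunits of the epithelial sodium channel, the target of Sgk1, had nearly equal fold changes. Scnn1a, Scnn1b and Scnn1g differed by 0.35 ± 0.11, 0.32 ± 0.10 and 0.35 ± 0.09 (SE), with adjusted p = 0.0825, 0.0753 and 0.0458, so that Scnn1g alone was called with 5 PBS mice. With all 6 PBS mice the adjusted p were 0.0454, 0.0473 and 0.0304. PBS mouse 6 had the highest level of each (36.6, 30.8 and 18.8 FPKM). The Scnn1g call was lost without Ctrl mouse 1, 2 or 5 or PBS mouse 1, 2 or 4 (adjusted p = 0.0633 to 0.145). The water channel Aqp2 ranged over 58.3 to 357 FPKM in Ctrl and 76.7 to 192 FPKM in PBS and did not pass (adjusted p = 0.8403).

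Of 20 intercalated cell markers 1 was higher (Car2) and none lower, with a median of 0.02. Car2, carbonic anhydrase II, which supplies protons for acid secretion, stood at 93.7, 111 and 130.3 FPKM in Ctrl and 168, 183, 177, 165 and 131 FPKM in PBS (log2 fold change 0.58 ± 0.11 (SE), adjusted p = 0.00577). PBS mouse 6, at 97.8 FPKM, fell in the Ctrl range and ended the call (adjusted p = 0.0637). Without PBS mouse 5 there were 2 calls. None of 19 markers of the thick ascending limb was called in either direction by edgeR with 5 or 6 PBS mice, or by DESeq2 or limma. At an unadjusted p under 0.05, 3 were higher and 1 lower, and 14 had a positive fold change (median 0.19).

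**Figure D4:**
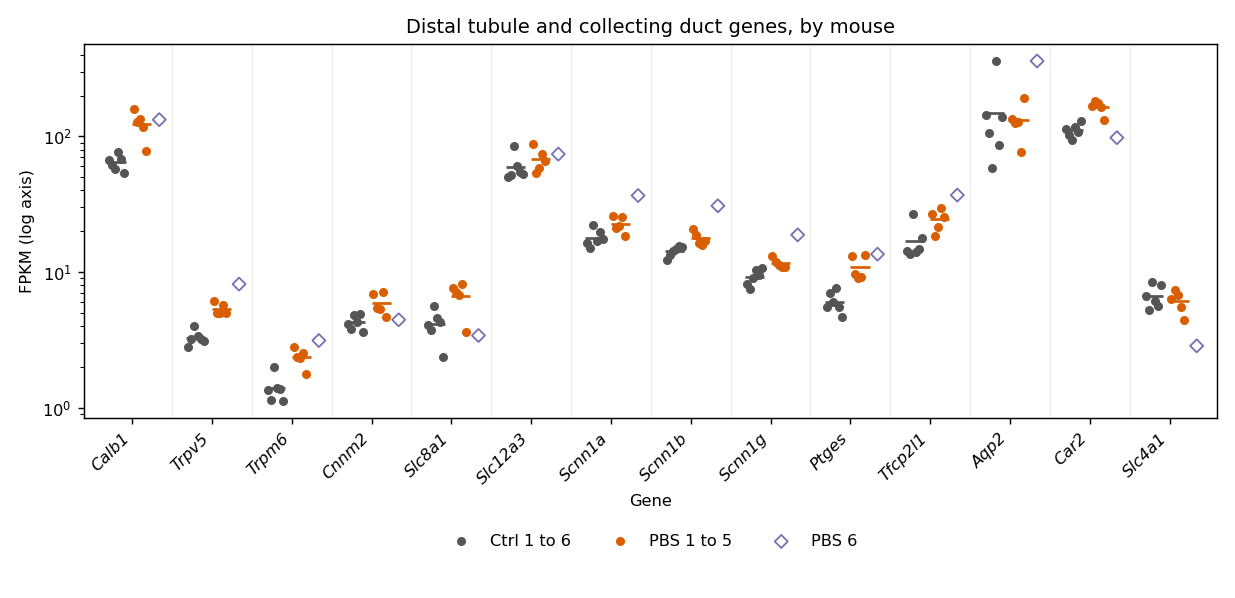
FPKM (log axis) of 14 genes of the distal nephron in each mouse, from the distal convoluted and connecting tubule (Calb1 to Slc12a3), principal cells (the sodium channel subunits to Aqp2) and intercalated cells (Car2, Slc4a1); grey dots are Ctrl, orange dots PBS mice 1 to 5, the purple diamond PBS mouse 6, and lines group means of Ctrl 1 to 6 and PBS 1 to 5. Calb1 and Trpv5 are separated between the groups, the sodium channel subunits differ less, and Slc12a3 and Aqp2 overlap.

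Outside the tubule the calls were few. Of 17 podocyte markers 2 were higher (median 0.23), Cdkn1c and Kirrel, and 3 with all 6 PBS mice. The count was 1 without Ctrl mouse 1, 2, 5 or 6 or PBS mouse 5, none without PBS mouse 1 and 4 without Ctrl mouse 3. Cdkn1c, the p57 cell-cycle inhibitor of resting podocytes, stood at 6.06, 7.199 and 8.26 FPKM in Ctrl and 9.67, 10.6, 9.12, 9.15 and 10.6 FPKM in PBS (log2 fold change 0.46 ± 0.11 (SE), adjusted p = 0.01998), and was lost without PBS mouse 1 (adjusted p = 0.0501). Kirrel, a nephrin-like protein of the filtration slit, was lost without Ctrl mouse 1, 2, 5 or 6 or PBS mouse 1 or 5 (adjusted p = 0.0516 to 0.0674). Of 18 endothelial markers 1 was lower and none higher, and 2 were lower without Ctrl mouse 3. That gene was Aplnr, the apelin receptor of vessels, at 1.82, 2.15 and 2.59 FPKM in Ctrl and 0.739, 0.972, 0.605, 0.392 and 1.04 FPKM in PBS (log2 fold change -1.53 ± 0.24 (SE), adjusted p = 0.00143). Every PBS mouse was under every Ctrl mouse, and PBS mouse 6 was lowest at 0.109 FPKM. Pecam1, which defines endothelium, did not move with it (0.03 ± 0.16 (SE), adjusted p = 0.946).

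Among 20 genes of mural cells, fibroblasts and matrix 2 were higher (median 0.40) and 3 with all 6 PBS mice. Col6a1, a chain of collagen VI, stood at 2.92, 3.21 and 4.24 FPKM in Ctrl and 5.17, 5.14, 6.38, 6.42 and 6.25 FPKM in PBS (log2 fold change 0.78 ± 0.16 (SE), adjusted p = 0.0103). Acta2, smooth muscle actin, stood at 9.48, 12.6 and 18.6 FPKM in Ctrl and 26.8, 26.97, 20.2, 17.4 and 30.3 FPKM in PBS (log2 fold change 0.92 ± 0.24 (SE), adjusted p = 0.0409), and its call was lost without Ctrl mouse 1, 2, 5 or 6 or PBS mouse 1, 2 or 5 (adjusted p = 0.0695 to 0.106). In each of those fits Col6a1 was the call that remained.

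Of 11 tested genes of the renin-angiotensin system 2 were higher and 2 lower, with a median of 0.25. Ace, which forms angiotensin II, was lower: 25.2, 30.7 and 42.4 FPKM in Ctrl and 21.9, 18.5, 18.05, 21.97 and 20.3 FPKM in PBS (log2 fold change -0.67 ± 0.16 (SE), adjusted p = 0.0226). The groups did not overlap, but the call was lost with all 6 PBS mice (adjusted p = 0.09601), PBS mouse 6 being low at 3.51 FPKM, and without Ctrl mouse 5 (adjusted p = 0.0552). Enpep, the aminopeptidase that trims angiotensin II, rose (log2 fold change 0.45 ± 0.10 (SE), adjusted p = 0.0151), and was lost without PBS mouse 1 or 4 (adjusted p = 0.0501 to 0.0517). Mas1, the receptor for angiotensin 1-7, was low in all mice (0.301, 0.524 and 0.598 FPKM in Ctrl, 0.193, 0.257, 0.222, 0.235 and 0.238 FPKM in PBS) and lower in PBS (log2 fold change -1.06 ± 0.24 (SE), adjusted p = 0.01998), and was lost without Ctrl mouse 5 or PBS mouse 1 (adjusted p = 0.0502 to 0.0626). Ren1, renin, stood at 30.4, 41.3 and 56.7 FPKM in Ctrl and 49.2, 78.4, 67.1, 67.6 and 65.1 FPKM in PBS and lay just outside the threshold (0.62 ± 0.17 (SE), adjusted p = 0.0529). With PBS mouse 6, at 452 FPKM, the fold change of Ren1 was 1.58 (adjusted p = 0.0449). Leaving out 1 mouse gave 0 to 4 higher and 0 to 2 lower calls in this list, with no higher call without PBS mouse 1 or 4, 4 without Ctrl mouse 3, no lower call without Ctrl mouse 5 and 1 without PBS mouse 1. There was 1 higher call without Ctrl mouse 2, 4 or 6 or PBS mouse 2 or 3.

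**Figure D5:**
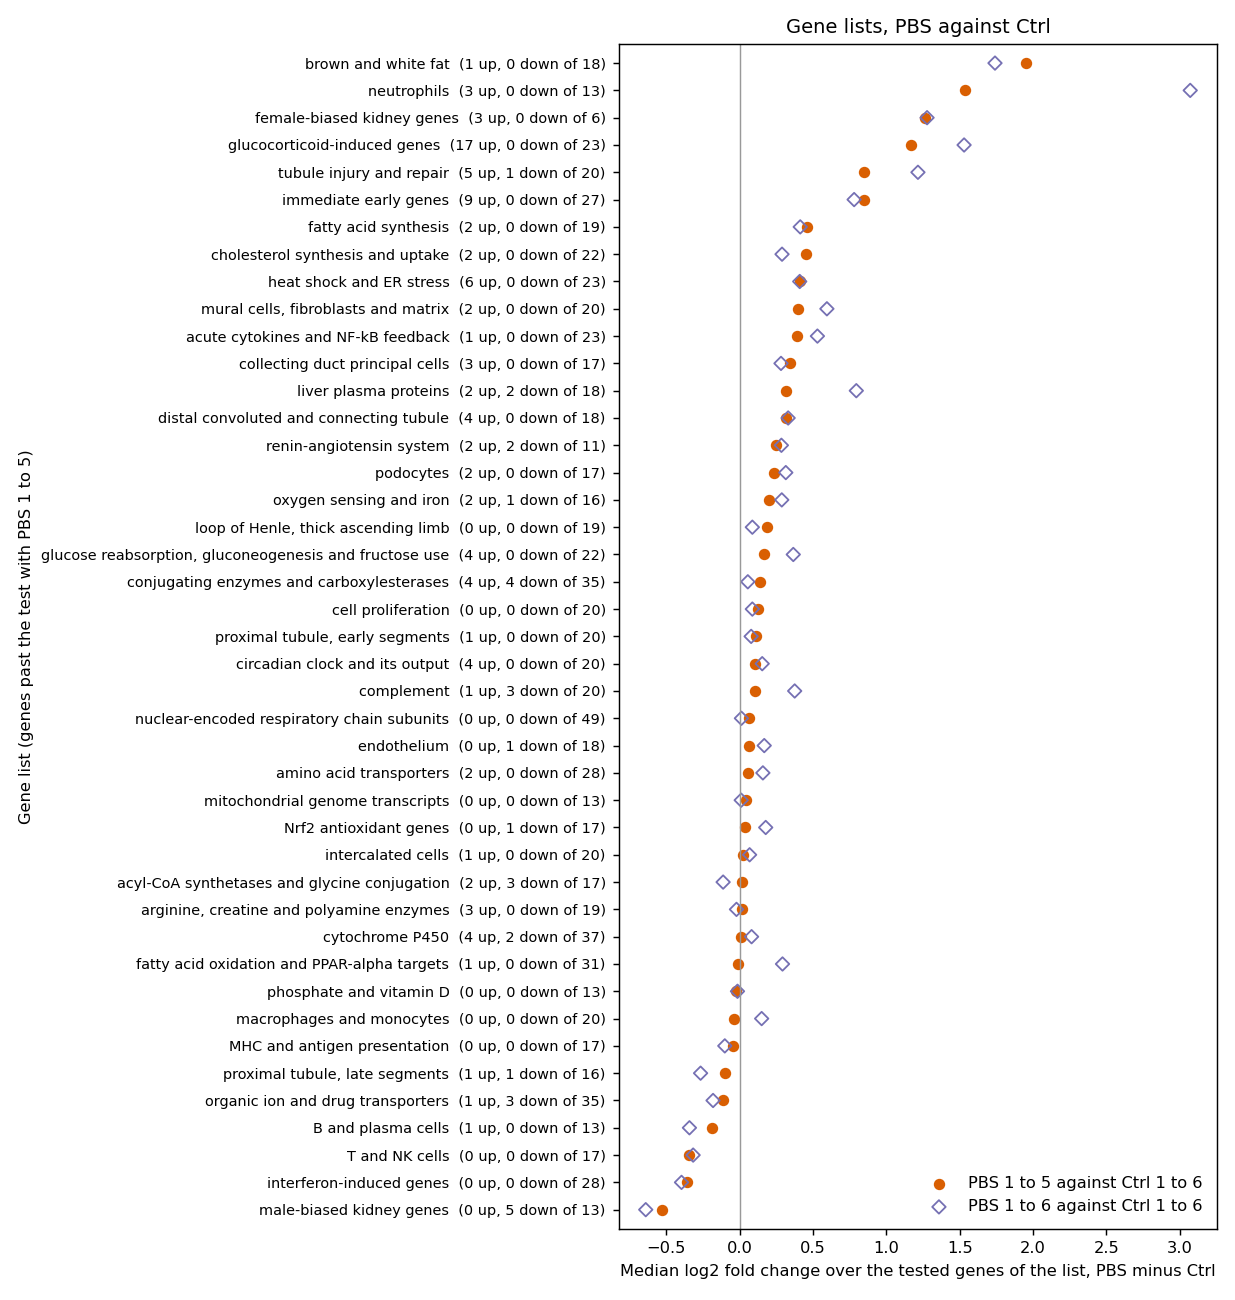
Median log2 fold change (PBS minus Ctrl) of the tested members of the gene lists, those of the adrenal gland, blood and skeletal muscle left out. Orange dots are for 5 PBS mice and purple diamonds for all 6, and the number of members higher and lower at an adjusted p under 0.05 is printed beside each list. Genes induced by glucocorticoids (17 of 23 higher, median 1.17) stand out by count, while the medians of the fat list (1.95) and the neutrophil list (1.54) are large with 1 of 18 and 3 of 13 members called. The neutrophil median covers the 13 of 21 members that passed the filter on low counts.

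Fatty acid oxidation and its PPAR-alpha targets had 1 of 31 members higher (median -0.01), which was Cyp4a14 (described above), and 2 lower without PBS mouse 5. Of 49 nuclear-encoded subunits of the respiratory chain edgeR called none (median 0.07), 4 were higher at an unadjusted p under 0.05, DESeq2 called 1 and limma none, and 1 was lower without Ctrl mouse 3. Of 13 transcripts of the mitochondrial genome none was called by edgeR, DESeq2 or limma, nor at an unadjusted p under 0.05 (median 0.04). Among the 10 largest falls that passed the naming rule was Acsm3, a synthetase that activates medium-chain acids in the mitochondria, at chr7:119760923-119787513. It stood at 129, 144 and 177 FPKM in Ctrl and 21.6, 51.5, 33.5, 40.4 and 32.5 FPKM in PBS (log2 fold change -2.02 ± 0.24 (SE), adjusted p = 0.000155), with 3.28 FPKM in PBS mouse 6. Its list, acyl-CoA synthetases and glycine conjugation, had 3 of 17 members lower and 2 higher (median 0.02). Glyat, which joins glycine to the acids so activated, also fell: 100.4, 103 and 105 FPKM in Ctrl and 66.2, 72.2, 73.2, 78.6 and 73.6 FPKM in PBS, a tight separation (log2 fold change -0.49 ± 0.09 (SE), adjusted p = 0.00335). Acsm2 was lower too (log2 fold change -0.38 ± 0.10 (SE), adjusted p = 0.0384), but not with all 6 PBS mice (adjusted p = 0.0628) nor without Ctrl mouse 1, 2, 4 or 5 or PBS mouse 1, 2, 3 or 5 (adjusted p = 0.0524 to 0.0898). Acsl4 and Acsf2, synthetases for other acids, were higher by 0.44 ± 0.10 and 1.16 ± 0.29 (SE; adjusted p = 0.0227 and 0.0312). Acsl4 was lost without Ctrl mouse 2 or 5 or PBS mouse 1 or 4 (adjusted p = 0.0509 to 0.07504), and Acsf2 without Ctrl mouse 1, 2, 4 or 5 or PBS mouse 1 or 5 (adjusted p = 0.0599 to 0.0896). The list held 1 higher call without Ctrl mouse 1 or 4 or PBS mouse 4 or 5 and none without Ctrl mouse 2 or 5 or PBS mouse 1.

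Enzymes and carriers that handle foreign compounds changed one by one. Of 37 cytochrome P450 genes 4 were higher and 2 lower (median 0.01), and with all 6 PBS mice 2 and 2. Of all genes 2.14% were higher and 1.67% lower. Without Ctrl mouse 6 there were 3 lower calls. Beside the sex-biased members above, Cyp2d22 rose from 3.67, 4.05 and 5.79 to 7.49, 7.08, 8.299, 7.14 and 8.51 FPKM (log2 fold change 0.84 ± 0.11 (SE), adjusted p = 0.000331), with 20.6 FPKM in PBS mouse 6. Cyp1a1, a target of the dioxin receptor, was low and higher in PBS (0.497 to 1.43 against 0.196 to 0.428 FPKM; log2 fold change 1.58 ± 0.34 (SE), adjusted p = 0.0142), and was not called with all 6 PBS mice (adjusted p = 0.0816). Of 35 conjugating enzymes and carboxylesterases 4 were higher and 4 lower (median 0.14). The carboxylesterases Ces1g, Ces1f and Ces1e were all lower (Ces1e -0.53 ± 0.10 (SE), adjusted p = 0.00691). Ces1g stood at 2.36, 6.68 and 7.77 FPKM in Ctrl and 0.312, 0.888, 0.638, 0.869 and 1.25 FPKM in PBS (log2 fold change -2.88 ± 0.39 (SE), adjusted p = 0.000464), and Ces1f at 169.5, 248 and 271 and 127, 147, 142, 134 and 142 FPKM (log2 fold change -0.79 ± 0.13 (SE), adjusted p = 0.001499). These genes lie side by side on chromosome 8 and are close paralogs, so reads shared among them may have been split by the authors' counting. Gm45727, an uncharacterised gene at chr8:93238653-93251175 between Ces1e and Ces1f, fell too (log2 fold change -2.39 ± 0.39 (SE), adjusted p = 0.00181).

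Ugt1a10, a glucuronosyltransferase that shares its last exons with the other Ugt1a genes, was higher (3.08, 5.57 and 11.8 FPKM in Ctrl, 28.2, 23.5, 20.8, 22.2 and 15.3 FPKM in PBS; log2 fold change 1.73 ± 0.32 (SE), adjusted p = 0.00453), and its reads cannot be cleanly told from those of its neighbours. Gstt2, a glutathione transferase, was lower (52.1, 68.6 and 91.9 FPKM in Ctrl, 39.5, 35.4, 36.2, 39.3 and 41.1 FPKM in PBS; log2 fold change -0.88 ± 0.14 (SE), adjusted p = 0.00167). The number of higher calls among conjugating enzymes fell to 1 without Ctrl mouse 1, 4 or 5 or PBS mouse 1 and to 2 without PBS mouse 3 or 4, and without Ctrl mouse 3 there were 7 lower calls. Of 35 organic ion transporters 1 was higher and 3 lower (median -0.11). Slc22a12, which takes up urate, stood at 626, 777 and 903 FPKM in Ctrl and 507, 509, 552, 438 and 519 FPKM in PBS, with 443 FPKM in PBS mouse 6 (log2 fold change -0.63 ± 0.11 (SE), adjusted p = 0.00214). Slc22a4, the carrier of ergothioneine, fell from 15.6, 18.6 and 21.02 to 12.3, 11.99, 10.7, 11.3 and 12.2 FPKM (log2 fold change -0.64 ± 0.09 (SE), adjusted p = 0.000612). The 1 higher member, Slc22a29, went from 0.6996, 1.03 and 1.59 to 4.23, 3.08, 4.71, 4.703 and 1.89 FPKM (log2 fold change 1.79 ± 0.27 (SE), adjusted p = 0.000871). There were 5 lower calls without Ctrl mouse 3 or 6 or PBS mouse 2, 3 higher ones without Ctrl mouse 3 and 2 without PBS mouse 5.

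Among 19 genes of arginine, creatine and polyamine metabolism 3 were higher and none lower (median 0.01), and 2 with all 6 PBS mice, with 1 lower call without Ctrl mouse 3. Arg2, the mitochondrial arginase, stood at 2.14, 2.798 and 3.91 FPKM in Ctrl and 7.895, 9.28, 12.1, 10.3 and 5.55 FPKM in PBS (log2 fold change 1.67 ± 0.29 (SE), adjusted p = 0.00306), and PBS mouse 6 had 21.7 FPKM. Oat, which takes the ornithine so formed toward glutamate, stood at 48.4, 56.8 and 68.5 FPKM in Ctrl and 74.999, 93.2, 96.02, 103 and 67.9 FPKM in PBS (log2 fold change 0.62 ± 0.11 (SE), adjusted p = 0.00445). Among 28 amino acid transporters, 2 were higher (Slc7a12 and Slc38a2; median 0.05), and 1 lower call appeared without Ctrl mouse 3 or 6 or PBS mouse 4. Slc38a2, a sodium-coupled carrier of glutamine and alanine, stood at 3.68, 4.39 and 5.26 FPKM in Ctrl and 7.67, 5.84, 5.77, 9.27 and 7.41 FPKM in PBS (log2 fold change 0.70 ± 0.14 (SE), adjusted p = 0.00942).

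Of 22 genes of glucose reabsorption, gluconeogenesis and fructose use 4 were higher and none lower (median 0.17), and also 4 with all 6 PBS mice (median 0.37). Without Ctrl mouse 3 there were 2 lower calls. Pck1, the rate-limiting enzyme of gluconeogenesis, stood at 267, 355 and 413 FPKM in Ctrl and 554, 543, 502, 608 and 827 FPKM in PBS (log2 fold change 0.80 ± 0.16 (SE), adjusted p = 0.00929). All PBS mice were above all Ctrl mice, with PBS mice 5 and 6 on top (858 FPKM in PBS mouse 6). G6pc, the last enzyme of the same path, differed from it: 117, 132 and 158 FPKM in Ctrl and 85.6, 63.8, 101, 98.4 and 82.1 FPKM in PBS, below every Ctrl mouse but just outside the threshold (-0.62 ± 0.17 (SE), adjusted p = 0.0512). PBS mouse 6 had 295 FPKM of G6pc, above every other mouse. Slc5a10, a carrier of mannose and fructose, rose from 50.6, 51.6 and 64.1 to 101, 77.3, 65, 84.8 and 70.9 FPKM (log2 fold change 0.56 ± 0.11 (SE), adjusted p = 0.00979), and Pkm, pyruvate kinase, rose by 0.74 ± 0.16 (SE; adjusted p = 0.01403).

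Alas1, the first and rate-limiting enzyme of haem synthesis, was among the 10 largest rises that passed the naming rule. It stood at 9.61, 10.7 and 15.5 FPKM in Ctrl and 74.9, 38.5, 23.5, 84.6 and 26.1 FPKM in PBS (log2 fold change 2.10 ± 0.30 (SE), adjusted p = 0.000612), and PBS mice 1 and 4 again had the highest levels. PBS mouse 6 had 28.1 FPKM. Among 16 tested genes of oxygen sensing and iron, 2 were higher and 1 lower (median 0.20). Epo, erythropoietin, made by interstitial cells of the cortex, was near the floor in 5 Ctrl mice and stood at 0.608, 0.783, 3.03, 2.301 and 0.331 FPKM in PBS. Ctrl mouse 5, at 0.378 FPKM, lay above PBS mouse 5, so the groups overlapped (log2 fold change 3.93 ± 0.87 (SE), adjusted p = 0.0155). Car9, a carbonic anhydrase induced by low oxygen in many tissues, was lower in every PBS mouse (2.904, 5.54 and 5.88 FPKM in Ctrl, 2.42, 2.13, 1.71, 2.401 and 2.35 FPKM in PBS; log2 fold change -1.12 ± 0.23 (SE), adjusted p = 0.00942). The second higher member, Pgk1, a glycolytic enzyme (0.33 ± 0.09 (SE), adjusted p = 0.0375), was not called with all 6 PBS mice (adjusted p = 0.0616) nor without Ctrl mouse 1, 2 or 6 or PBS mouse 1, 3 or 4 (adjusted p = 0.0636 to 0.116). Markers of red cells varied among mice of both groups, from 47.8 to 781 summed FPKM in Ctrl and from 150 to 2138 in PBS mice 1 to 5. Of 8 tested, none was called by edgeR, DESeq2 or limma, nor at an unadjusted p under 0.05. In the oxygen and iron list there were 3 higher calls without PBS mouse 2 or 5.

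Of 22 genes of cholesterol synthesis and uptake, 19 had a positive fold change and the median was 0.45, but 2 were called, and none with all 6 PBS mice (median 0.29). Nsdhl and Cyp51, late steps of the path, stood at 28.2, 24.7, 26.2, 27.7 and 20.5 and 94.5, 68.7, 83.5, 80.97 and 64.04 FPKM in PBS against 14.5 to 18.95 and 50.1 to 60.2 FPKM in Ctrl. For both every one of PBS mice 1 to 5 was above every Ctrl mouse, and PBS mouse 6 was below (10.9 and 5.59 FPKM). Nsdhl rose by 0.59 ± 0.11 and Cyp51 by 0.53 ± 0.11 (SE; adjusted p = 0.00415 and 0.0131; with all 6 PBS mice 0.158 and 0.719). There were 5 higher calls without PBS mouse 5, and 3 without Ctrl mouse 3 or PBS mouse 2.

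Fatty acid synthase and the brown fat marker Ucp1 were highest in the same 2 PBS mice. Of 19 genes of fatty acid synthesis, 2 were higher (Elovl3 and Fasn; median 0.46) and 1 with all 6 PBS mice. Fasn, fatty acid synthase, stood at 3.81, 5.94 and 9.47 FPKM in Ctrl and 76.98, 5.66, 16.8, 16.6 and 191 FPKM in PBS, high in PBS mice 5 and 1 (log2 fold change 3.28 ± 0.90 (SE), adjusted p = 0.0483). The uncoupling protein Ucp1, which defines brown fat and is not a tubule gene, had 0 to 6.57 FPKM in Ctrl and 20.8, 1.82, 13.2, 1.75 and 214 FPKM in PBS, with the same 2 mice on top. The 18 fat markers summed to 105 to 388 FPKM in Ctrl, 132 to 2086 FPKM in PBS mice 1 to 5 and 87.8 FPKM in PBS mouse 6. Of them Elovl3 alone was called (median 1.95), Ucp1 was at 0 in Ctrl mouse 5, and without PBS mouse 5 there was 1 lower call in its place (median 0.72). Elovl3, which elongates fatty acids in fat, had 1.396, 0.133, 0.5102, 0.267 and 8.71 FPKM in PBS and at most 0.0615 FPKM in Ctrl, and its call (log2 fold change 5.98 ± 1.38 (SE), adjusted p = 0.0208) was lost without Ctrl mouse 5 or PBS mouse 5 (adjusted p = 0.0514 to 0.0744). The Fasn call was lost with all 6 PBS mice (adjusted p = 0.0712) and without Ctrl mouse 1, 2, 3, 4, 5 or 6 or PBS mouse 1, 4 or 5 (adjusted p = 0.0514 to 0.153). With limma neither Elovl3 nor Fasn was called at either pseudocount, 0.1 or 1. In the fatty acid synthesis list as a whole the count was 3 without PBS mouse 2, none without Ctrl mouse 5 and 1 without Ctrl mouse 1, 2, 4 or 6 or PBS mouse 1, 4 or 5. 

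Transcripts of the adrenal gland, which lies on the kidney, were low. The 14 markers summed to 0.964 to 2.32 FPKM in Ctrl and 1.9 to 16.7 FPKM in PBS mice 1 to 5, 5 of them were tested, and none was called by edgeR, DESeq2 or limma, although 3 were higher at an unadjusted p under 0.05 and 1 was called without Ctrl mouse 3. Cyp11b1, the enzyme that makes corticosterone, was at 0 to 0.0103 FPKM in Ctrl and 0.0101 to 0.4203 FPKM in PBS, with the highest value in PBS mouse 5. What part adrenal or fat tissue has in any difference was not tested. Of 7 skeletal muscle markers tested none was called by edgeR, DESeq2 or limma, nor at an unadjusted p under 0.05.

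Lists of resident immune cells held no calls. None of 20 macrophage and monocyte markers was called (median -0.04), none of 17 T and NK cell markers (median -0.34), none of 17 MHC genes (median -0.04) and none of 28 interferon-induced genes (median -0.36), by edgeR with 5 PBS mice. At an unadjusted p under 0.05, 2 macrophage markers, 1 T and NK cell marker and 5 interferon-induced genes were lower and 1 MHC gene was higher. DESeq2 called 1 macrophage marker and 1 T and NK cell marker lower, limma called none, and 1 MHC gene was higher without PBS mouse 5. The macrophage markers summed to 91.6 to 113 FPKM in Ctrl, 99.0 to 134 FPKM in PBS mice 1 to 5 and 171 FPKM in PBS mouse 6. Adgre1, the F4/80 antigen, stood at 0.754, 0.8196 and 1.19 FPKM in Ctrl and 0.982, 1.08, 1.5002, 1.16 and 0.864 FPKM in PBS (0.29 ± 0.24 (SE), adjusted p = 0.586). The interferon median rested on Ctrl mouse 6, where Irf7 stood at 34.4 and Ifit3 at 44.4 FPKM against 4.96 to 6.53 and 7.39 to 18.7 FPKM in the other Ctrl mice, and without that mouse the median was -0.03. Among macrophage markers 1 lower call appeared without Ctrl mouse 6 or PBS mouse 4.

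Some transcripts of granulocytes were higher, at very low levels. The neutrophil markers summed to 2.48 to 5.22 FPKM in Ctrl, 10.4 to 31.0 FPKM in PBS mice 1 to 5 and 122 FPKM in PBS mouse 6. Of 21 markers with levels, 13 passed the filter on low counts. Of these 13, 3 were higher (S100a8, S100a9 and Ngp), and 5 with all 6 PBS mice. Those 3 encode granule and cytosolic proteins of granulocytes. Csf3r, the receptor for their growth factor, did not overlap (0.0777 to 0.243 FPKM in Ctrl, 0.313 to 0.4204 FPKM in PBS) but missed the threshold (1.11 ± 0.32 (SE), adjusted p = 0.0571). Cxcr2 and Ly6g, which define mature neutrophils, were too low to be tested, at 0.0253 to 0.0793 and 0 to 0.0663 FPKM in PBS mice 1 to 5. Ngp was listed at 0 in every Ctrl mouse and in PBS mouse 1, and at 0 to 0.552 FPKM over PBS mice 1 to 5. It thus passed the filter only through defeated mice and could come out only as higher. Limma did not call Ngp (adjusted p = 0.0562 and 0.0983 at pseudocounts of 0.1 and 1), and DESeq2 gave it no adjusted p. No member was called without Ctrl mouse 2 or PBS mouse 4, and 1 without Ctrl mouse 1 or 5. The 1 called member of 13 B and plasma cell markers was Mzb1, an endoplasmic reticulum protein of plasma cells, at 0.177, 0.303 and 0.697 FPKM in Ctrl and 1.04, 1.096, 1.55, 0.682 and 1.16 FPKM in PBS (log2 fold change 1.60 ± 0.35 (SE), adjusted p = 0.0153), and 0.195 FPKM in PBS mouse 6 ended that call (adjusted p = 0.06799).

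Complement genes, many of which the tubule makes itself, had 3 of 20 members lower and 1 higher (median 0.10), and 2 lower and 4 higher with all 6 PBS mice. Cfb, factor B of the alternative pathway, was abundant and fell slightly: 110.5, 113 and 128 FPKM in Ctrl and 85.4, 89.3, 88.3, 101 and 80.8 FPKM in PBS (log2 fold change -0.37 ± 0.09 (SE), adjusted p = 0.0227), lost without Ctrl mouse 2 or 5 or PBS mouse 1 or 5 (adjusted p = 0.0512 to 0.0677). C2, its counterpart in the classical pathway and its neighbour on chromosome 17, stood at 6.58, 7.91 and 10.3 FPKM in Ctrl and 4.49, 4.84, 3.79, 6.29 and 5.94 FPKM in PBS (log2 fold change -0.65 ± 0.14 (SE), adjusted p = 0.01302), but at 9.72 FPKM in PBS mouse 6 (adjusted p = 0.135 with all 6 PBS mice). C3 ranged over 4.43 to 22.8 FPKM in PBS, 1.95 to 6.52 FPKM in Ctrl and 57.7 FPKM in PBS mouse 6 (adjusted p = 0.121 with 5 PBS mice and 0.04598 with 6). The 1 higher member, C7, was lost without Ctrl mouse 1, 2, 4, 5 or 6 or PBS mouse 1, 3, 4 or 5 (adjusted p = 0.0532 to 0.0823), and the third lower one, C8g, without Ctrl mouse 1, 2, 5 or 6 or PBS mouse 2, 3, 4 or 5 (adjusted p = 0.05001 to 0.135). There was no higher call without Ctrl mouse 1, 2, 4, 5 or 6 or PBS mouse 1, 3 or 4, and 1 lower call without Ctrl mouse 2 or 5 or PBS mouse 5. Of 23 tested genes of acute cytokines and NF-kB feedback 1 was higher, Nfkbia (described above), with a median of 0.39, and 5 with all 6 PBS mice (median 0.53). There were 3 higher calls without Ctrl mouse 3 or PBS mouse 2 or 5 and 2 without Ctrl mouse 2 or PBS mouse 3. Socs3, a feedback inhibitor of cytokine signalling, was high in PBS mice 3 and 4 (1.72, 1.01, 4.44, 5.804 and 0.943 FPKM in PBS, 0.755 to 1.37 FPKM in Ctrl) and reached 23.8 FPKM in PBS mouse 6.

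Genes of tubule injury and repair had 5 of 20 members higher and 1 lower (median 0.85), beside 2.14% and 1.67% of all genes. With all 6 PBS mice 7 were higher and 1 lower (median 1.22). With PBS mice 1 to 5 the higher ones were Cdkn1a, Clu, Spp1, Atf3 and Tnfrsf12a. Of these, Cdkn1a and Atf3 also stand in the lists above. Clu, clusterin, a chaperone secreted by stressed tubule cells, stood at 53.6, 60.6 and 79.2 FPKM in Ctrl and 117, 153, 116, 148 and 94.4 FPKM in PBS, with 299.6 FPKM in PBS mouse 6 (log2 fold change 0.98 ± 0.13 (SE), adjusted p = 0.000464). Spp1, osteopontin, stood at 285, 332 and 532 FPKM in Ctrl and 561, 643, 709, 931 and 534 FPKM in PBS (log2 fold change 0.91 ± 0.18 (SE), adjusted p = 0.00797), and at 3904 FPKM in PBS mouse 6. Tnfrsf12a, the receptor of TWEAK, was highest in PBS mice 1 and 4 (29.3, 10.8, 12.9, 40.2 and 8.37 FPKM in PBS, 4.45 to 10.003 FPKM in Ctrl; log2 fold change 1.53 ± 0.34 (SE), adjusted p = 0.0156), and was lost without PBS mouse 1 or 4 (adjusted p = 0.0542 to 0.0579). Il34, a growth factor for macrophages made by tubule cells, was lower (5.61, 10.7 and 12.5 FPKM in Ctrl, 1.87, 6.49, 4.16, 3.75 and 2.69 FPKM in PBS; log2 fold change -1.42 ± 0.30 (SE), adjusted p = 0.0118).

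The usual marker of acute tubule damage was not among the calls. Havcr1, which encodes KIM-1, stood at 0.242, 0.6595 and 0.932 FPKM in Ctrl, 0.346, 1.07, 1.66, 1.32 and 0.721 FPKM in PBS and 9.75 FPKM in PBS mouse 6 (0.69 ± 0.50 (SE), adjusted p = 0.512). Lcn2, which encodes NGAL, stood at 0.474, 1.25 and 1.82 and 0.985, 2.52, 4.42, 3.08 and 2.58 FPKM in Ctrl and PBS mice 1 to 5 (adjusted p = 0.192), and PBS mouse 6 had 49.2 FPKM. Of 20 proliferation genes none was called by edgeR, DESeq2 or limma, nor at an unadjusted p under 0.05 (median 0.12). Of 13 tested genes of phosphate and vitamin D none was called by edgeR, DESeq2 or limma (2 higher and 1 lower at an unadjusted p under 0.05), and 1 was higher without PBS mouse 5. Of 17 Nrf2 antioxidant genes 1 was lower, Prdx1 (log2 fold change -0.41 ± 0.10 (SE), adjusted p = 0.0335), which was lost without Ctrl mouse 1, 2, 4 or 5 or PBS mouse 1, 2, 4 or 5 (adjusted p = 0.0619 to 0.0854), and 3 were higher with all 6 PBS mice. Without Ctrl mouse 3 there were 3 lower calls among these genes, without PBS mouse 2 or 3 there were 3 higher ones and without PBS mouse 5 there was 1. Hmox1, haem oxygenase, was at 15.8, 15.1, 15.7, 20.2 and 163 FPKM in PBS and 11.6 to 16.6 FPKM in Ctrl, raised in PBS mouse 5 alone among the first 5.

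Plasma protein genes known best from the liver are also expressed in the tubule at low levels. Of 18 tested members 2 were lower and 2 higher (median 0.32). Pzp, a broad protease inhibitor, went from 3.84, 7.33 and 14.02 to 1.85, 0.952, 0.914, 1.29 and 1.18 FPKM (log2 fold change -2.67 ± 0.30 (SE), adjusted p = 0.000129), and Hrg, histidine-rich glycoprotein, from 0.658, 1.62 and 3.22 to 0.278, 0.232, 0.216, 0.3501 and 0.409 FPKM (log2 fold change -2.41 ± 0.35 (SE), adjusted p = 0.00072998). Separation of PBS mice 1 to 5 from Ctrl was a condition for naming both, and PBS mouse 6 was lower still (0.0881 and 0.0472 FPKM). Serpina1a, alpha-1-antitrypsin, stood at 75.7, 119.9, 75.5, 91.5 and 56.5 FPKM in PBS against 21.5 to 49.3 FPKM in Ctrl (log2 fold change 1.28 ± 0.31 (SE), adjusted p = 0.0265), and was lost without Ctrl mouse 1, 2, 4 or 5 or PBS mouse 1, 2 or 4 (adjusted p = 0.0515 to 0.0649) and with all 6 PBS mice (adjusted p = 0.0657). Fga, the fibrinogen alpha chain, stood at 4.14, 5.68 and 8.79 FPKM in Ctrl and 20.96, 7.73, 10.6, 18.1 and 9.905 FPKM in PBS (log2 fold change 1.21 ± 0.28 (SE), adjusted p = 0.01998), and at 266 FPKM in PBS mouse 6, and was lost without Ctrl mouse 2 or PBS mouse 1 or 4 (adjusted p = 0.0523 to 0.0756). No higher call was left in this list without Ctrl mouse 2 or PBS mouse 1 or 4, 1 was left without Ctrl mouse 1, 4 or 5 or PBS mouse 2, and 4 were called without PBS mouse 5.

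Among the largest changes that passed the naming rule, these belong to no list. Tuba8, an alpha tubulin, stood at 0.121, 0.275 and 0.423 FPKM in Ctrl and 1.57, 0.777, 0.738, 0.465 and 2.85 FPKM in PBS (log2 fold change 2.19 ± 0.57 (SE), adjusted p = 0.0364), and PBS mouse 6 at 0.456 FPKM was lowest among the PBS mice. The Tuba8 call was lost without Ctrl mouse 1, 2, 4, 5 or 6 or PBS mouse 1 or 5 (adjusted p = 0.0509 to 0.101). It was also lost with limma (adjusted p = 0.0732 and 0.129 at pseudocounts of 0.1 and 1). Gm12840, an uncharacterised gene at chr4:117700188-117700923, rose from 0.147, 0.199 and 0.322 to 1.81, 0.562, 1.01, 2.35 and 1.25 FPKM (log2 fold change 2.65 ± 0.40 (SE), adjusted p = 0.00103), and PBS mouse 6 had 22.2 FPKM. Ly6i, a membrane protein of the Ly6 family, was listed at 0 in PBS mice 1 to 5 and at 0.367 to 1.89 FPKM in Ctrl, so no fold is given. Gm6300, an uncharacterised gene at chr3:14363117-14377587, fell from 11.9, 28.2 and 33.5 FPKM in Ctrl to 1.57, 4.38, 1.64, 2.23 and 1.18 FPKM in PBS (log2 fold change -3.52 ± 0.48 (SE), adjusted p = 0.000464), and PBS mouse 6 was lower still, at 0.1102 FPKM. Gm6300 lies near Slc7a12 (chr3:14480697-14505830), which rose in PBS mice 1 to 5, so the 2 changes may not be independent. Whether reads were shared between them was not tested. Gm16146, also uncharacterised, stood at 0.7197, 1.16 and 1.61 FPKM in Ctrl and 0.159, 0.391, 0.514, 0.419 and 0.2596 FPKM in PBS (log2 fold change -1.77 ± 0.35 (SE), adjusted p = 0.007995), with 0.501 FPKM in PBS mouse 6. Separation of PBS mice 1 to 5 from Ctrl was a condition for naming Gm6300 and Gm16146, and PBS mouse 6 was below every Ctrl mouse for both.

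PBS mouse 6 shared part of this profile and departed from it elsewhere. The summed level of the glucocorticoid list was 338 to 448 FPKM in Ctrl, 535 to 1057 FPKM in PBS mice 1 to 5 and 1823 FPKM in PBS mouse 6. The injury list summed to 444 to 685, 788 to 1232 and 4485 FPKM in the same order, and the renin-angiotensin list to 163 to 214, 208 to 239 and 592 FPKM. Most of that last sum was Ren1, described above. In PBS mouse 6 the median member of the renin-angiotensin list differed from the Ctrl mean by 0.015 on the log2 scale. For the glucocorticoid and injury lists this was 2.19 and 2.11. For Cyp4b1, Trpv5, Ptges and Arg2, PBS mouse 6 lay on the PBS side of every Ctrl mouse, whereas for Slc7a12, Gatm, Nsdhl, Cyp51 and Serpina1c it lay below every Ctrl mouse although the other PBS mice were above. Slc7a13, a late proximal tubule carrier, stood at 6.44 FPKM in PBS mouse 6 against 172 to 254 FPKM in the other PBS mice and 227 to 334 FPKM in Ctrl.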

How the data were processed

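Poly(A) RNA of right kidneys was sequenced as stranded read pairs. Per the study's methods the authors used fastp for cleaning, HISAT-3N for alignment to GRCm38 and StringTie for assembly; the submitters' processing notes list cutadapt 1.9, HISAT2 2.0.4, UMI-tools, StringTie 1.3.4d, DESeq2 and edgeR. They deposited an FPKM and an estimated count per gene and mouse. The counting tool was not given in the sources used here. More genes held 4 counts (median per mouse, 720) than 3 (484.5) or 5 (268), so the deposited whole numbers were not taken as single reads.

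Counts were tested with edgeR 4.0.16 in R 4.3.3 (quasi-likelihood F test, two-sided, TMM, filterByExpr with a minimum count of 10) in 1 model of 17 mice (6 Ctrl, PBS 1 to 5, 6 FLX), with Benjamini-Hochberg adjusted p under 0.05 as the call. FPKM are levels. limma 3.58.1 on log2(FPKM + 0.1) or log2(FPKM + 1) and DESeq2 1.42.0 were alternatives. Gene coordinates are GENCODE on GRCm38, and promoters are RefSeq on GRCm38.p6.

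The 46 gene lists were chosen with earlier results of these data known. Named genes were the 10 largest rises and falls with a mean FPKM of at least 1, groups apart and a call with 5 and 6 PBS mice (leaving out genes the study's text names), the 2 smallest adjusted p per list, and defining markers. For the largest rises and falls, the separation of PBS mice 1 to 5 from Ctrl was thus fixed by that choice. Other genes were named after their values were seen. FLX contrasts were not used here.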

Additional observations from a re-analysis of the deposited data

Results flagged for a closer look

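In each group of 6 mice, the highest and lowest levels of 66 named genes were compared with their neighbours on the log2(FPKM + 0.1) scale (Dixon's test), and 24 of 132 groups held a mouse far from the rest, where chance flags about 1 group in 20. PBS mouse 6 made up 21 of them, Ctrl mouse 5 made up 2 and Ctrl mouse 6 made up 1. Most of these genes were chosen in a fit that left out PBS mouse 6, and genes of the same mouse are not independent, so the chance rate does not apply to that mouse's share.

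PBS mouse 6 was far below the other PBS mice for the genes given next. Slc7a12 stood at 0.708 FPKM against 12.2 to 28.7 FPKM in PBS mice 1 to 5, Slco1a1 at 0.427 against 2.82 to 6.35, Pzp at 0.0881 against 0.914 to 1.85 and Kap at 4720 against 17873 to 21183 FPKM. The mitochondrial enzymes Acsm3 (3.28 against 21.6 to 51.5 FPKM), Gatm (76.3 against 191 to 286 FPKM) and Glyat (43.9 against 66.2 to 78.6 FPKM) were low as well. So were the receptors Prlr (1.55 against 3.96 to 5.69 FPKM) and Mas1 (0.0329 against 0.193 to 0.257 FPKM), Ces1f (32.5 against 127 to 147 FPKM), Slc22a4 (4.66 against 10.7 to 12.3 FPKM) and the sterol enzymes Nsdhl (10.9 against 20.5 to 28.2 FPKM) and Cyp51 (5.59 against 64.0 to 94.5 FPKM).

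The same mouse was far above the others for Cyp4a14 (1357 against 96.0 to 193 FPKM), Slc5a10 (248.7 against 65.0 to 101 FPKM), Cyp2d22 (20.6 against 7.08 to 8.51 FPKM) and Gm12840 (22.2 against 0.562 to 2.35 FPKM). It was also above them for Scnn1g (18.8 against 10.9 to 13.0 FPKM), Kirrel (3.58 against 1.21 to 1.78 FPKM) and Col6a1 (9.58 against 5.14 to 6.42 FPKM), and it was the PBS mouse with Ly6i (0.310 FPKM, listed at 0 in the others).

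Among Ctrl mice, mouse 5 was highest for Epo (0.378 FPKM against 0.00459 to 0.0446 FPKM) and for Cfb (127.5 against 110.5 to 115 FPKM), and mouse 6 was lowest for Ces1f (169.5 against 234 to 271 FPKM).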

How the results depend on the processing

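Against 433 genes higher and 339 lower, leaving out 1 mouse at a time gave 216 to 916 higher and 172 to 746 lower. The counts moved by over 1.5 times without Ctrl mouse 1 (277 higher), 2 (243 and 182), 3 (916 and 746) or 5 (284 and 196) and without PBS mouse 1 (216 and 172) or 4 (230 and 204). Fitting Ctrl and PBS mice alone, with 19380 genes tested, gave 287 and 209, and DESeq2 gave 783 and 630. With all 6 PBS mice and no FLX mice, chosen after seeing the data, 196 and 147 genes were called. The count past the study's threshold, 664, was 1977 with no filter on low counts, 261 among genes with a mean FPKM of at least 1, 380 with limma and a pseudocount of 0.1, and 88 with a pseudocount of 1.

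Replicate numbers did not pair the mice: the correlation of deviations between same-numbered Ctrl and PBS mice ran from -0.221 to 0.083. With the replicate number as a block, 241 genes were higher and 178 lower, and with all 6 PBS mice as well, chosen after seeing the data, 297 and 242. Without PBS mouse 5 but with PBS mouse 6, also chosen after seeing the data, 459 were higher and 297 lower.

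Of the fold changes of named genes under these alternatives, 1410 kept direction and side of the threshold, 173 lost the call in the same direction, and no called fold change reversed. Of 1104 list medians, 57 moved by more than the spread between PBS mice. Another count, of medians that changed sign, came to 57 as well, in 15 of 46 lists whose own medians lay within 0.19 of 0, such as macrophages and monocytes (0.15 with all 6 PBS mice against -0.04). The cause of these shifts was not tested. Calls of low genes, such as those of granulocytes, rest on few counts, and total counts of 72149987 to 78711121 in these 12 mice are estimates.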
